A study of Mus musculus with 12 samples.

Results

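A set of 10 genes of the lipid droplet surface and of lipolysis was followed in H3K27ac ChIP-seq peak lists of Azin2-/- and wild-type mouse cells. They were listed by name: the perilipins Plin1, Plin2, Plin3, Plin4 and Plin5, the CIDE gene Cidec, the lipases Pnpla2, Lipe and Mgll, and the lipase cofactor Abhd5. All 10 were found among 21631 protein-coding genes of chromosomes 1 to 19 and X, each taken as its GRCm38 span with 5 kb on each side. The cells were progenitors of subcutaneous fat, grown for 1 week. Both genotypes then had 2 days of insulin (5 µg/ml), IBMX (0.5 mM), dexamethasone (1 µM) and rosiglitazone (1 µM), and 5 days of insulin. There were 3 Azin2-/- libraries (replicates 1, 2 and 8) and 3 wild-type ones (replicates 1, 2 and 2b). The labels do not describe the knockout allele, the strain and age of the mice, or whether libraries came from separate animals. The p-values below therefore measure only the spread between these libraries.

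A fat cell keeps triglyceride in lipid droplets, whose surface is coated by perilipins. CIDEC, enriched in white fat, lets droplets grow by transferring lipid between them. Triglyceride is broken down in sequence by adipose triglyceride lipase (encoded by Pnpla2), hormone-sensitive lipase (Lipe) and monoglyceride lipase (Mgll). ABHD5 activates adipose triglyceride lipase, and PLIN1 holds ABHD5 back until protein kinase A phosphorylates PLIN1. Several of these genes are targets of PPARG, which rosiglitazone activates. Acetylation of lysine 27 of histone H3, H3K27ac, marks active promoters and enhancers.

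Promoter sequences are shown for 4 genes because they span the patterns found: a peak at the start in all 6 libraries (Abhd5), in 5 (Mgll), in 2 Azin2-/- libraries (Lipe, the upstream of 2 starts) and in none (Plin1). Each is the 250 bases before the start, 5′ to 3′, from RefSeq on GRCm38.p6. They lie at chr9:122351366-122351615 (plus strand), chr6:88724162-88724411 (plus), chr7:25395988-25396237 (minus) and chr7:79732777-79733026 (minus). Capitals mark matches on either strand to AGGTCA, the core element bound by nuclear receptors, or to TTNNGCAA, a loose C/EBP motif.
Abhd5: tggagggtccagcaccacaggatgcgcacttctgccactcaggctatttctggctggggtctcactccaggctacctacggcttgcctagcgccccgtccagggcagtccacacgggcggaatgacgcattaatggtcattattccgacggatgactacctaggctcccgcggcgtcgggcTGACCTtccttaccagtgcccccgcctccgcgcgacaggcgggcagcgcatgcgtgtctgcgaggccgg
Mgll: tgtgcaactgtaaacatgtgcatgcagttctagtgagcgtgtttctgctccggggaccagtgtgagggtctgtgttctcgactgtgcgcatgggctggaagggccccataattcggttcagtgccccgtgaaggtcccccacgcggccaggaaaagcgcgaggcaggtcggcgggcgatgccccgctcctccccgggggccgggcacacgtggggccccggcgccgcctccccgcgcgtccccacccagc
Lipe: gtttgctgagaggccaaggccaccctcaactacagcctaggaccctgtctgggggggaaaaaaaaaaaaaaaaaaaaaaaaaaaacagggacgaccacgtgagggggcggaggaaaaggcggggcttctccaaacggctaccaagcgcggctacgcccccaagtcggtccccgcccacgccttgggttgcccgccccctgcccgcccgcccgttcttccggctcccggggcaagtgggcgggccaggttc
Plin1: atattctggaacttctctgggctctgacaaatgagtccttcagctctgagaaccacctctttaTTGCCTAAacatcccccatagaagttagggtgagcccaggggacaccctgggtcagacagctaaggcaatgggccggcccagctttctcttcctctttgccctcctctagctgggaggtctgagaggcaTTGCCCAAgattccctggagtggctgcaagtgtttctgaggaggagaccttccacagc

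The Abhd5 and Mgll windows were rich in CpG, with 22 and 23 CpG dinucleotides, and the Lipe window held 18. The Plin1 window held 1, as did that of the downstream Lipe start (chr7:25390113-25390362). For the other members the counts were 12 at Pnpla2, 11 and 14 at the starts of Plin5, 7 at Plin3, 6 at Plin2 and Plin4, and 4 and 6 at those of Cidec. The median over 21045 starts of protein-coding genes was 10. AGGTCA matched at Abhd5, Plin2 and 1 start of Plin5, and the loose C/EBP motif matched at 1 start of Cidec and 2 times at Plin1, from base -187 to -180 and from -58 to -51. Of 32851 promoter windows in the table, 14.0% held AGGTCA and 9.56% held TTNNGCAA. No member window held the direct repeat of AGGTCA with 1 base between, which PPARG binds with RXR (0.0335% of windows), nor TTGCGCAA (0.164%), the palindrome of the glucocorticoid receptor (0.387%), TGACGTCA (1.55%), the cyclic AMP element, or TATAAA (12.4%). CANNTG, the E-box, matched at 10 of 14 member starts and in 66.2% of windows. TTGCGCAA is a case of TTNNGCAA, and the direct repeat contains AGGTCA. A match describes letters, not a bound site.

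The depth in reads is unknown. Each list held 742335 to 1217494 peaks, down to a p of about 0.1, and comparisons used the 30000 peaks of smallest p in each library, here called strong peaks. The name marks rank only: 13843 to 54847 peaks a library reached a q of 0.05, fewer than 30000 in all but Azin2-/- replicate 1. Of the 55 distinct strong peaks at members 8 had a q above 0.05, of which 3 were inside Mgll, 2 at Lipe, and 1 each at Plin2, Plin5 and Cidec. Strong peaks covered 16.8 to 28.9 Mb. The fold and p deposited for a peak imply a pileup (the fragments over the summit) and a local background, taking the fold as a ratio with 1 added to both terms. All 55 gave a whole pileup within 0.001 on the -log10 p scale. Pileups were not adjusted for depth. Among adipocyte markers Adipoq and Retn had no strong peak in any library, and none of the 8 adipocyte markers had cover in all 6. Of 8 progenitor markers Pdgfra alone had cover in all 6. Of all 21631 genes with 5 kb on each side, 31.4% had a strong peak in all 6 libraries and 17.5% in none.

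Start sites differed among the 10 genes. Abhd5 had a strong peak within 1 kb of its start in all 6 libraries and Mgll in 5, while Plin1, Plin3 and Cidec had none in any. Plin2, Pnpla2 and Lipe each had a start peak in 2 libraries, and Plin4 and Plin5 in 1. Over 17274 genes with a listed start, 19% had a start peak in all 6 libraries, 29.1% in 5 or 6, and 41.3% in none. The members numbered 1, 2 and 3 of 10, so that none of these counts was above its background share. By library, 5, 2 and 3 members had a start peak in Azin2-/- replicates 1, 2 and 8, and 2, 3 and 4 in wild-type replicates 1, 2 and 2b. The shares over all genes were 51.3%, 37.8% and 36.8% in those Azin2-/- libraries and 29.7%, 34.4% and 40.5% in the wild-type ones, with the highest share and the highest count both in Azin2-/- replicate 1. Counting either end of a gene, 2 members (Plin1 and Abhd5) had a strong peak in all 6 libraries, near the 18% of all 21631 genes. Among all deposited peaks, however weak, 6 members had a peak at a start in all 6 libraries, against 50.4% of all genes with a listed start, and Plin4 had the fewest with 3.

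**Figure D1:**
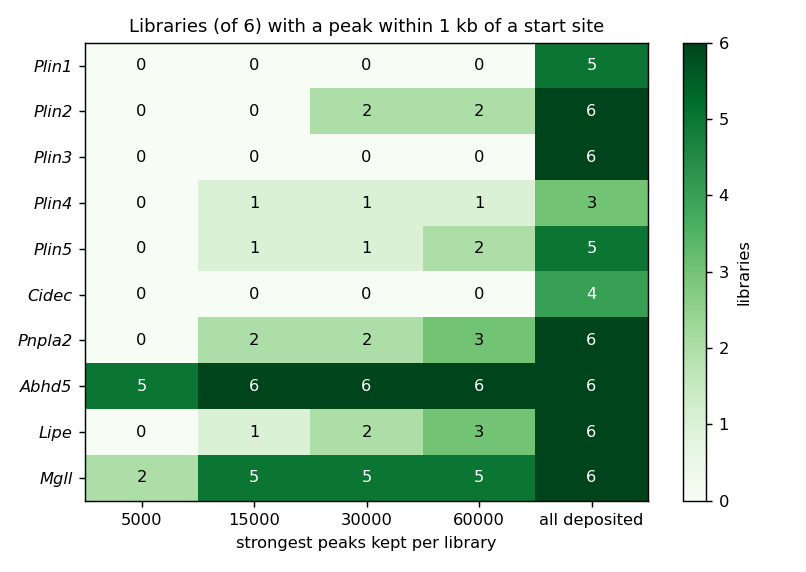
Number of libraries, of 6, with a peak within 1 kb of a RefSeq start site (colour and digits) for each gene (rows) when the 5000, 15000, 30000 or 60000 strongest peaks or all deposited peaks are kept (columns). Abhd5 stays at 6 from the 15000 strongest on, while Plin1, Plin3 and Cidec stay at 0 up to the 60000 strongest.

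Starts with more CpG more often had peaks across the genome. Of 6971 starts with 0 to 4 CpG, 1.33% had a strong peak in all 6 libraries and 81.8% in none. With 5 to 9 CpG the shares were 8.23% and 52.3%, and with 10 to 19 CpG 22.0% and 21.0%. Of 5048 starts with 20 or more CpG, 44.3% had one in all 6 and 5.19% in none. Abhd5 and both starts of Mgll belong to the CpG-rich class. Plin1, the downstream Lipe start and the upstream start of Cidec belong to the poorest class and had no start peak in any library. Between these classes, Plin3 and the downstream start of Cidec also had none. Plin2, Plin4, Plin5, Pnpla2 and the upstream Lipe start, also between them, had one in 1 or 2 libraries.

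Abhd5, the cofactor of adipose triglyceride lipase, was the member with a strong start peak in every library. The gene lies on chromosome 9 from 122351616 to 122381524, and the stretch from 122351580 to 122352319, 740 bp over and after the start, was inside the peak in every library. Summits fell 250 to 508 bp after the start. The pileup was 32, 6 and 31 fragments in Azin2-/- replicates 1, 2 and 8, and 7, 15 and 42 in wild-type replicates 1, 2 and 2b. The peak ranked 33, 9014 and 3455 of 30000 in the Azin2-/- lists and 2179, 1970 and 660 in the wild-type lists. In Azin2-/- replicate 1, 15 genes had a start peak at least as strong, Abhd5 included, against 4929 in Azin2-/- replicate 2. Cover of strong peaks within the gene and 5 kb, scaled to equal total cover per library, was 1025, 774 and 1419 bp in Azin2-/- and 2259, 1170 and 990 bp in wild-type. The genotypes overlapped, with means of 1072 ± 325 and 1473 ± 687 bp (SD, n = 3).

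Mgll, whose enzyme releases the last fatty acid as glycerol is freed, lies on chromosome 6 from 88724412 to 88828360. It had a start peak in 5 libraries, with pileups of 26 and 7 in Azin2-/- replicates 1 and 2 and of 4, 8 and 21 in wild-type replicates 1, 2 and 2b. These 5 peaks shared 1101 bp, from 88724031 to 88725131. Azin2-/- replicate 8 had a peak at the same place with a pileup of 18, but its implied background was 8.07 fragments, so that it ranked 74200. In the other libraries the background at this start was 0.146 to 1.51 fragments. The pileup in that library was thus within the range of the others and the background above it, and the part of the background in the missing strong peak was not tested. Leaving out that library brought Mgll and Pnpla2 to a peak at a gene end in every remaining library. Scaled cover at the locus was 1361, 1133 and 417 bp in Azin2-/- and 3465, 2169 and 1354 bp in wild-type. Azin2-/- was lower on average, at 970 ± 493 against 2329 ± 1064 bp (SD, n = 3), and the genotypes overlapped only in Azin2-/- replicate 1, just above wild-type replicate 2b.

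**Figure D2:**
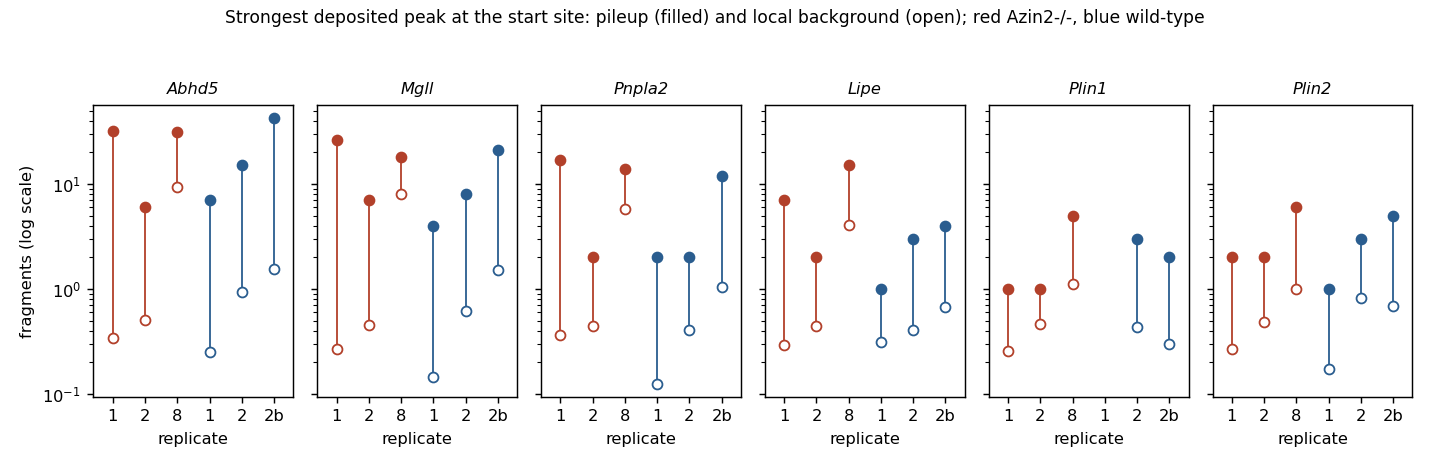
Implied pileup (filled) and local background (open), in fragments on a log axis, of the strongest deposited peak within 1 kb of a start of 6 genes, by replicate (red Azin2-/-, blue wild-type; no symbol where there is no peak). In Azin2-/- replicate 8 the background is 9.42 at Abhd5, 8.07 at Mgll, 5.83 at Pnpla2 and 4.04 at Lipe, above every other library.

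Pnpla2, which encodes the lipase that opens triglyceride breakdown, lies on chromosome 7 from 141455188 to 141460743. Strong start peaks were found in Azin2-/- replicate 1 and wild-type replicate 2b, with pileups of 17 and 12. Azin2-/- replicate 8 had a pileup of 14 there against a background of 5.83, at rank 84539, and each of the other 3 libraries had a pileup of 2. The more regular peak lay past the far end of the gene, with summits 6661 to 6724 bp after the start in 5 libraries, all but Azin2-/- replicate 8. It falls at Cracr2b, whose span begins 131 bp beyond Pnpla2, so the cover of this locus cannot be given to Pnpla2 alone. Scaled cover was 3800, 1208 and 0 bp in Azin2-/- and 926, 1099 and 2000 bp in wild-type. The genotypes overlapped, and Azin2-/- replicate 1 held the highest value and replicate 8 the lowest.

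Lipe, the hormone-sensitive lipase gene on chromosome 7 from 25379527 to 25398486, was the member with the largest difference between genotypes. Scaled cover was 1675, 2558 and 1286 bp in Azin2-/- replicates 1, 2 and 8 and 0, 278 and 0 bp in wild-type replicates 1, 2 and 2b. Every Azin2-/- library was above every wild-type library when the 5 kb on each side was counted. The means were 1839 ± 652 and 92.5 ± 160 bp (SD, n = 3). The locus reached the minimum mean of 500 bp set for the test mainly through Azin2-/- cover. Its sign was thus partly set by that minimum, and its size partly by the 500 bp added before the log2. The difference was 1.98 on the log2(cover + 500 bp) scale with SE 0.53 and did not pass the test (limma unadjusted p = 0.00316, adjusted p = 0.752). Of 11687 loci tested, 6.66% had all Azin2-/- libraries above all wild-type libraries, and 4.3% were higher in Azin2-/- at an unadjusted p under 0.05.

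No single site at Lipe was covered in all 3 Azin2-/- libraries. Replicates 1 and 8 had a peak at the upstream start, with pileups of 7 and 15 and summits 16 bp before and 42 bp after it. Replicates 1 and 2 had a peak at the far end of the gene, with a pileup of 4 in each. Replicates 2 and 8 had a peak at -5459 and -4562 bp from the upstream start, within 1 kb of Cxcl17. These made up 1944 of 2492 bp of unscaled cover in replicate 2 and 428 of 1169 bp in replicate 8. Both lie outside the Lipe span, as does the far-end peak of replicate 2, which runs from 25378956 to 25379503. None of the cover of Azin2-/- replicate 2 thus fell in the gene itself. The cover of this locus therefore cannot be given to Lipe alone. The far-end peak of replicate 2 and the Cxcl17 peak of replicate 8 had a q above 0.05. Wild-type replicate 2 had 1 strong peak inside the gene with a pileup of 5. Among all deposited peaks each library had one at the upstream start, with pileups of 7, 2 and 15 in Azin2-/- and 1, 3 and 4 in wild-type. The backgrounds there were 0.293, 0.445 and 4.04 fragments in Azin2-/- and 0.314, 0.410 and 0.678 in wild-type. These pileups were not adjusted for depth. With all deposited peaks the difference over the locus was 0.08 (limma adjusted p = 0.999, and 0.342 to 0.999 over the 16 alternatives). With a pseudocount of 200 bp the difference was 2.88 and with 1000 bp 1.36. With the 15000 and 60000 strongest peaks it was 1.04 and 1.29.

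Summed cover at markers of muscle and macrophages was higher in every Azin2-/- library than in any wild-type one. The same held at 6.66% of the single loci tested. The 5 muscle markers summed to 2177 to 2283 bp in Azin2-/- and 0 to 1163 bp in wild-type libraries, and the 6 macrophage markers to 1512 to 3221 and 817 to 1271 bp. Myog had no strong peak in any library. Single markers went the other way. The muscle marker Acta1 and the macrophage markers Adgre1 and Csf1r had cover in wild-type replicate 2 alone. Ptprc had 447, 827 and 647 bp in Azin2-/- and 1087, 0 and 1193 bp in wild-type. The 5 endothelial markers overlapped between genotypes, at 2750 to 5113 and 826 to 4207 bp, as did the 8 adipocyte markers (1646 to 4253 and 195 to 3610 bp) and the 8 progenitor markers (2989 to 7505 and 4630 to 9546 bp). The part of such cells in the Lipe values was not tested. A smaller share of cells with a peak and a weaker peak in every cell cannot be told apart in these bulk samples.

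Plin1, the main coat protein of fat cell droplets, differed from Abhd5 and Mgll in where its peak lay. The gene is on the minus strand of chromosome 7, from 79721164 to 79732904, and all 6 libraries had a strong peak at the end away from the start. Summits lay 11163 to 11216 bp after the start, at -449 to -396 bp from the gene's far end. The peaks shared 403 bp, from 79721427 to 79721829. The pileup was 13, 7 and 16 in Azin2-/- and 7, 14 and 16 in wild-type, and the rank ran from 1130 in Azin2-/- replicate 8 to 10904 in Azin2-/- replicate 1. A strong peak within 1 kb of the far end in all 6 libraries was found at 1.07% of genes with a listed start, and at 34 of them, Plin1 among them, with none at the start in any library. At the Plin1 start itself the strongest deposited peak had a pileup of 1 to 5 in 5 libraries, and wild-type replicate 1 had no deposited peak there. No other protein-coding gene lies within 1 kb of the far-end peaks.

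Cover of the Plin1 locus was 538, 1056 and 2196 bp in Azin2-/- and 735, 779 and 1023 bp in wild-type after scaling. Azin2-/- replicate 1 was the lowest library and replicate 8 the highest, so the genotypes overlapped, with means of 1263 ± 848 and 846 ± 155 bp (SD, n = 3). Beside the far-end peak, Azin2-/- replicate 2 had a strong peak inside the gene 4256 bp after the start, and Azin2-/- replicate 8 one near Kif7.

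**Figure D3:**
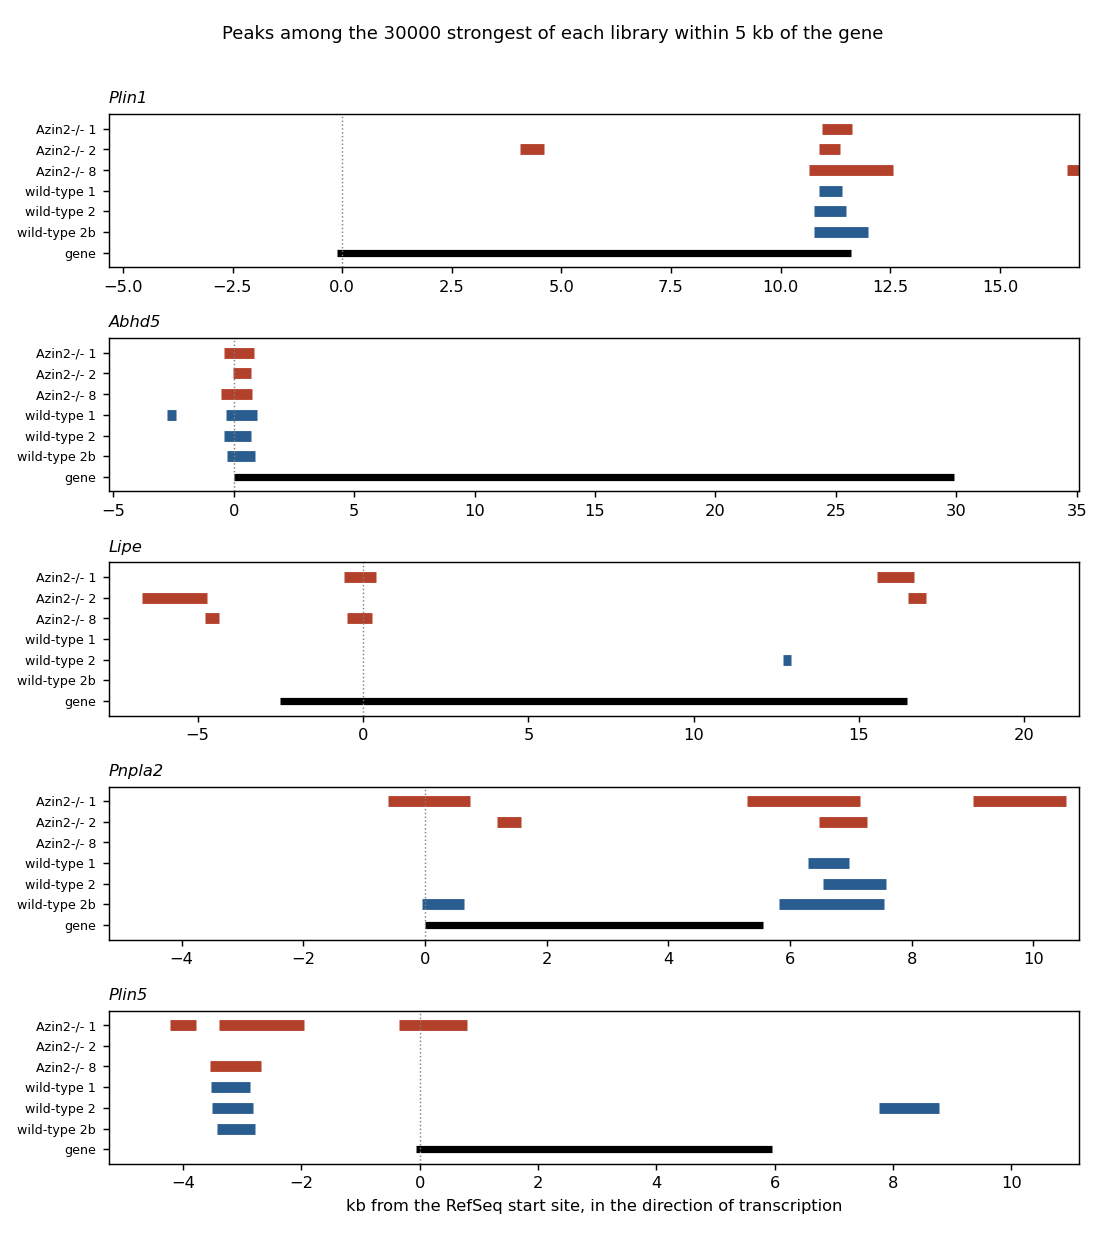
Extent of each strong peak (bars; red Azin2-/-, blue wild-type; 1 row per library) and of the gene (black), in kb from the start site in the direction of transcription, within 5 kb of the gene. The 6 Plin1 bars line up at the far end of the gene and the 6 Abhd5 bars at the start, whereas no Lipe bar is shared by all 3 Azin2-/- libraries.

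Plin5, the perilipin of tissues that burn fat, had a strong peak at its start in Azin2-/- replicate 1 alone, with a pileup of 9. In 5 libraries, all but Azin2-/- replicate 2, a peak had its summit at -3326 to -2987 bp from the start, within 1 kb of Lrg1, the neighbouring gene. Its pileup was 18 in Azin2-/- replicate 1 and 3 to 8 in the other 4. Scaled cover was 2417, 0 and 962 bp in Azin2-/- and 899, 1824 and 533 bp in wild-type, with the highest and the lowest library both in Azin2-/-. Plin4, 1648 bp from Plin5, had 1 strong peak, at its start in wild-type replicate 2 with a pileup of 5. That peak also counts within 5 kb of Plin5.

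Plin2, the coat protein found in most cell types, had strong start peaks in Azin2-/- replicate 8 and wild-type replicate 2b, with pileups of 6 and 5. Azin2-/- replicate 2 had one at -2932 bp. Scaled cover was 0, 375 and 1642 bp in Azin2-/- and 0, 0 and 578 bp in wild-type. Plin3, another broadly expressed perilipin, had a single strong peak, at its far end in Azin2-/- replicate 1 with a pileup of 4. Cidec had none at either start. It had 1 strong peak inside the gene in wild-type replicate 2, with a pileup of 10, and 1 beyond the gene in Azin2-/- replicate 2, with a pileup of 4. At the starts of Plin3 and Cidec the strongest deposited peaks had pileups of 1 to 4. Plin2, Plin3, Plin4 and Cidec fell under the mean cover of 500 bp set for the test and were not tested.

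**Figure D4:**
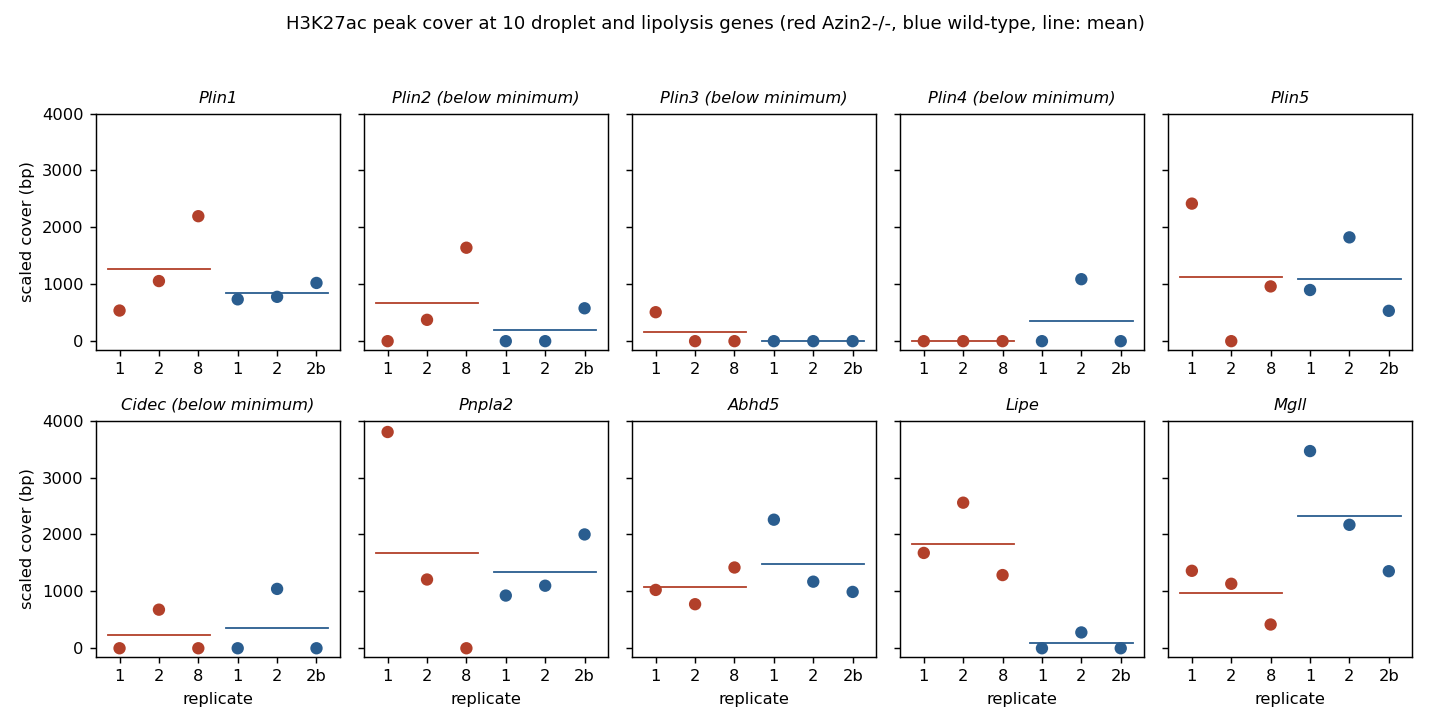
Scaled cover of strong peaks (bp) within each gene and 5 kb on each side, by replicate (red Azin2-/-, blue wild-type; lines are means, n = 3). Lipe is the panel in which the genotypes do not overlap, and Plin2, Plin3, Plin4 and Cidec are the genes under the minimum for the test.

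None of the 6 tested loci passed the genotype test. In limma 0 of 11687 loci (0%) had an adjusted p under 0.05, and 749 (6.41%) had an unadjusted p under 0.05, of the members Lipe alone. Lipe and Plin1 were positive and the other 4 negative, with a median log2 difference of -0.21 over the 6 and of 0.07 over all loci tested. At Pnpla2 and Plin5, each with a library at 0 bp in Azin2-/-, the mean cover ran the other way, at 1669 against 1342 bp and 1127 against 1085 bp. The log2 differences were 1.98 for Lipe (95% interval 0.82 to 3.13, not adjusted), 0.29 for Plin1 (-0.75 to 1.32), -0.21 for Pnpla2 (-1.70 to 1.27), -0.22 for Plin5 (-1.64 to 1.21), -0.29 for Abhd5 (-1.20 to 0.61) and -0.94 for Mgll (-1.89 to 0.02). The limma adjusted p was 0.778 for Mgll and 0.908 to 0.963 for the other 4. Plin1, Plin5 and Pnpla2 each had the other sign in 4 alternatives and Abhd5 in 1. Without Azin2-/- replicate 8 the difference was -0.08 for Plin1 and 0.60 for Pnpla2. Plin5 was 0.46 when Azin2-/- replicate 2 was left out and 0.10 when it was wild-type replicate 2. Pnpla2 was 0.04 when wild-type replicate 2b was left out.

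**Figure D5:**
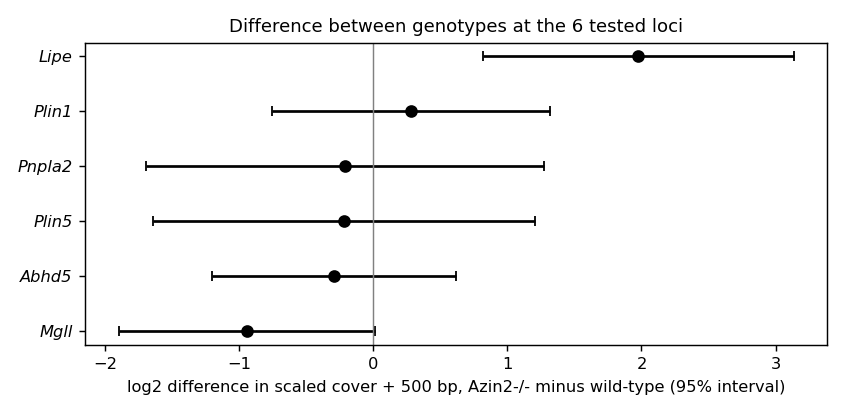
Log2 difference in scaled cover + 500 bp, Azin2-/- minus wild-type, with the unadjusted 95% interval of limma, at the 6 tested loci. The interval of Lipe lies above 0, from 0.82 to 3.13, and those of the other 5 include 0. Lipe reached the minimum for the test mainly through Azin2-/- cover.

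Merged regions narrowed the comparison to stretches of overlapping peaks. Of 12 tested regions at the members 8 were positive and 4 negative, and none passed (limma, 0% of 22192 regions, with 5.53% at an unadjusted p under 0.05, and 0 of the 12). The genotypes did not overlap at 7.84% of all regions and at 0 of the 12. The smallest adjusted p among the 12 was 0.603. The median log2 difference was 0.33 over the 12 and 0.17 over all regions tested. The 3 Lipe regions and the region beyond Pnpla2 from 141464196 to 141465724 had 0 bp in every wild-type library. They reached the 200 bp minimum through Azin2-/- cover alone and could only be positive. The 8 positive regions include them, so the count of signs does not measure direction. The far-end region of Plin1, on chromosome 7 from 79720207 to 79722123, had 538, 498 and 2109 bp in Azin2-/- and 735, 779 and 1023 bp in wild-type, a log2 difference of 0.03 (95% interval -1.24 to 1.30). The start region of Abhd5 differed by -0.24 (-1.12 to 0.63) and that of Mgll by -1.11 (-2.62 to 0.40). The 3 Lipe regions each had cover in 2 Azin2-/- libraries and 0 bp in wild-type. Their log2 differences were 1.46 at the far end, 1.54 at the upstream start and 1.73 before it, near Cxcl17 (limma adjusted p = 0.603 for each). The sign of these 3 differences was fixed by the minimum. The region near Cxcl17 joins peaks of Azin2-/- replicates 2 and 8, with summits at -5459 and -4562 bp, that overlap only at their edges.

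A wider list of 45 genes of the droplet and its hormonal control was set beside the members. Of these 30 were tested and 0 passed (limma), with 16 positive, 14 negative, 1 at an unadjusted p under 0.05 (6.41% over all loci) and a median log2 difference of 0.05. Adora1, the adenosine receptor that restrains lipolysis, had 1609, 2474 and 1289 bp in Azin2-/- and 626, 0 and 0 bp in wild-type, and the genotypes did not overlap (log2 difference 1.77, limma adjusted p = 0.752). Like Lipe, Adora1 reached the minimum for the test mainly through Azin2-/- cover. Fitm2, needed for droplet budding, and Npr1, the natriuretic peptide receptor, had the next smallest p among higher loci, with log2 differences of 0.89 and 0.74. The smallest p-values among lower loci belonged to Dgat1, which completes triglyceride synthesis (-1.21), Acsl1, which activates fatty acids (-0.47), and G0s2, an inhibitor of adipose triglyceride lipase (-0.99). The limma adjusted p was 0.778 for Dgat1 and 0.787 to 0.836 for Fitm2, Npr1, Acsl1 and G0s2. Gnas, the stimulatory G protein gene, named after its values were seen, also did not overlap, at 7649 ± 854 against 5556 ± 1083 bp (SD, n = 3), so that 2 of 30 loci did not overlap, against 11.5% of all loci.

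Mgll had the highest mean cover of the 10 loci. Its span of 104 kb was also the longest, and cover was not adjusted for length. The 3 tested genes nearest to it over the 6 libraries, by root mean square difference of log2(scaled cover + 500 bp), were Cox14 (0.22), Gpd1 (0.23) and Pdp1 (0.25). Cox14 and Gpd1 had equal values in 5 libraries, such as 1129 bp in Azin2-/- replicate 1.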

How the data were processed

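H3K27ac ChIP-seq peak lists of 6 libraries, 3 of each genotype, were used. The 6 input libraries were not analysed here. The authors deposited 1 peak list per library, on GRCm38 (mm10) per the submitters' processing notes. No source used here names the aligner, the peak caller or its control. Per the deposited values, each peak has a score (10 times the -log10 p), a summit position, a fold ratio of the summit to the background around it, and p- and q-values, both as -log10. These are the authors' own and were used only within a list.

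Computed here: equal coordinates were counted once, the 30000 peaks of smallest p were kept, and covered bp per gene with 5 kb each side were scaled to equal total cover. Start sites came from RefSeq promoter windows on GRCm38.p6, and peaks counted as at a start with 1 bp of overlap within 1 kb. The log2 of cover + 500 bp (minimum mean 500 bp) was tested with limma 3.58.1 (eBayes with trend, Benjamini-Hochberg at 0.05) over all loci; merged regions used 200 bp for both. The fit was tested on simulated data, where recovery of changes was required only at a spread below that of the data. The power at the observed spread is not given here.

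Named genes were the 10 members, for the 45 wider genes the 3 of smallest p in each direction, and the 3 genes most like the member of highest cover. Members, lists and alternatives were chosen with earlier results of these data known. Alternatives were list lengths, a q of 0.01, all peaks, pseudocounts, minimums, windows, scaling, a replicate block, averaging of wild-type 2 with 2b, and leaving out single libraries.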

Additional observations from a re-analysis of the deposited data

How the results depend on the processing

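In limma the number of gene loci called was 0 under every alternative but peaks at a q of 0.01 or less, which called 26 (22 higher and 4 lower in Azin2-/-), none a member. Regions called went from 0 to 50 with the 60000 strongest peaks, 3 at that q and 61 with no minimum, none of them among the 17, 9 and 28 regions tested at members there. Members with a peak at an end in all libraries numbered 2 (Plin1 and Abhd5), 0 in the 5000 strongest peaks, 1 at start sites (chosen after seeing the data), and 2 to 4 with a library left out, the 4 without Azin2-/- replicate 8. The shares over all genes were 18%, 3.83%, 19% and, without that library, 20%.

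Over 101 alternatives of the 6 loci 13 turned the sign and none passed. Lipe and Mgll kept their sign in all 16 and 17 run, at 0.08 to 2.88 and -1.99 to -0.41. Under the main setting Lipe reached the minimum mainly through Azin2-/- cover, so its sign was partly set by that minimum. Both were under the minimum, and so not run, in the 5000 strongest peaks, as was Lipe with the gene span alone. Plin1 was -0.55 in the 5000 strongest and -0.26 in all deposited peaks, Plin5 0.65 in the 60000 strongest and 0.15 in all peaks, Pnpla2 0.44 at a q of 0.01 or less and Abhd5 0.00427 in the 60000 strongest. With a library left out the ranges were -0.0768 to 0.60 for Plin1, -0.79 to 0.46 for Plin5, -0.93 to 0.60 for Pnpla2, -0.46 to -0.03 for Abhd5, 1.77 to 2.20 for Lipe and -1.20 to -0.63 for Mgll.

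Of 145 alternatives of the 12 regions 18 turned the sign and none passed. In the 5000 strongest peaks the far-end region of Plin1 was -1.10 and the start region of Mgll 0.13. The region at Lrg1 before Plin5 was 0.31 in the 15000 strongest. In the 60000 strongest it was 0.88, the Kif7 region beyond Plin1 -0.15 and the start region of Plin2 -0.62. At a q of 0.01 or less the far-end region of Plin1 was -0.24, that at Lrg1 0.0813 and that at Cracr2b beyond Pnpla2 0.66. With a library left out the far-end region of Plin1 ran from -0.54 to 0.33, the Kif7 region from -0.38 to 1.33, the region at Lrg1 from -0.89 to 0.46 and the start region of Pnpla2 from -0.0928 to 0.87.

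The replicate block grouped libraries by number, with wild-type 2b under 2. Azin2-/- replicate 8 was alone in its block and so added nothing to the genotype difference. With this block 0 loci and 0 regions passed (limma). Plin1 was then -0.0177, Pnpla2 0.55, the far-end region of Plin1 -0.52 and the start region of Plin2 -0.56. The labels do not say whether equal numbers pair the samples, and 3 libraries a genotype cannot settle it. Deviations from the genotype means correlated at -0.04 for number 1, 0.12 for Azin2-/- 2 with wild-type 2, and -0.06 with wild-type 2b. Pairs of unlike number ran from -0.10 to 0.09. The cause of these sign changes was not tested. Low pileups, with a median of 3 to 8 fragments over strong peaks by library, limit what any single peak shows.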

Other observations

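Local background at CpG-rich starts differed between libraries. Over 500 starts with 10 or more CpG, the implied background of the strongest deposited peak had a median of 4.59 fragments in Azin2-/- replicate 8, 4.52 times the median of 1.02 over that list. In wild-type replicate 2b it was 1.02 fragments, 3.36 times the list's 0.303. In the other 4 libraries the ratio was 1.01 to 1.15. The median pileup at these starts was 17 and 10 fragments in those 2 libraries, 14 in Azin2-/- replicate 1, and 3 to 6 in the remaining 3. Abhd5, Mgll and Pnpla2 had their highest background in Azin2-/- replicate 8 and their next highest in wild-type replicate 2b. At the far end of Plin1 the background was 1.39 and 1.06 fragments in these 2 libraries and 0.439 to 0.610 in the other 4. Both genotypes hold 1 such library, and the origin of the background was not tested.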
